A study of Mus musculus with 16 samples.

Results

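The enzymes that remove superoxide and peroxides were examined in cultured mouse articular chondrocytes, the cells that build and keep joint cartilage. The members were 10 genes chosen by symbol: the superoxide dismutases Sod1, Sod2 and Sod3, catalase (Cat), the peroxiredoxins Prdx1, Prdx5 and Prdx6, and the glutathione peroxidases Gpx1, Gpx3 and Gpx4. They were 10 of the 55450 gene rows in each library's table, and all 10 were among the 12976 genes tested, which had to reach 1 FPKM in 4 or more of 16 libraries. FPKM counts sequenced fragments relative to the length of the gene and the depth of the library.

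Each of 4 conditions had 4 libraries. For bleomycin, a DNA-breaking drug, cells were first kept for 4 h in hyaluronidase type I-S, at 4 U/mL, then exposed to the drug (50 µg/mL, 24 h) and cultured on without it in fresh medium (5 days). Doxorubicin, which traps topoisomerase II on DNA, was present at 50 nM throughout 5 days of culture, and medium was renewed every 48 h. The inflammatory cytokine IL-1β (il1b in the labels) was applied at 1 ng/mL over 24 h. Vehicle cells had PBS in the same volume over 24 h. All cells were primary, grown in DMEM with 10% fetal bovine serum at 37 °C, 5% CO2 and 3% O2. The submitters used the drugs as senescence stimuli and IL-1β as an acute stress control. The sources used here do not give the mouse strain, genotype or age, whether vehicle cells received hyaluronidase, or how long they had been in culture at harvest. Effects of the drugs therefore cannot be told apart from those of any difference in time in culture. For bleomycin they also cannot be told apart from effects of hyaluronidase. Nothing in the labels says that the 4 libraries of a condition came from separate animals or cultures, so the p-values measure only the spread between these libraries.

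Superoxide dismutases turn superoxide into hydrogen peroxide and oxygen: Sod1 in the cytosol and mitochondrial intermembrane space, Sod2 in the mitochondrial matrix and Sod3 outside the cell. Hydrogen peroxide is then removed by catalase in peroxisomes, by peroxiredoxins, which react through a cysteine, and by glutathione peroxidases, several of which carry selenocysteine in their active site. In cartilage these enzymes are known for restraining oxidative damage in a tissue that lives at low oxygen.

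Selenocysteine is encoded by UGA, which is a stop codon in most other messages, and 3 of the members hold it. The coding stretches around that codon are shown because Gpx1, Gpx3 and Gpx4 depend on the same decoding step but differed in how they varied across the conditions. Each stretch has 63 bases of the GENCODE M21 coding sequence (GRCm38, plus strand), 5′ to 3′, and the capitals mark the selenocysteine codon. That codon lies at chr9:108339451-108339453 in Gpx1 (codon 47), at chr11:54907256-54907258 in Gpx3 (codon 73) and at chr10:80054737-80054739 in Gpx4 (codon 129 of its longest selenocysteine transcript).
Gpx1: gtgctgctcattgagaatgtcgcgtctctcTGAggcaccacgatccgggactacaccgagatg
Gpx3: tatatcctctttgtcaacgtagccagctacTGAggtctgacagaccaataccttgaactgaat
Gpx4: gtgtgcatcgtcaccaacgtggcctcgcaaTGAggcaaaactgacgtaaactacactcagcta
With no gap allowed, Gpx1 and Gpx4 had the same base at 55.6% of the positions, Gpx3 and Gpx4 at 46.0%, and Gpx1 and Gpx3 at 42.9%.

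Promoter sequence was available for 8 of the 10 genes (RefSeq, GRCm38.p6, 300 bases around each annotated start). The stretches before the start of Sod1, Sod2 and Prdx1 are shown because these genes had different patterns: Sod2 and Sod1 were called with IL-1β and with neither drug, and Prdx1 with all 3 agents. They lie on the plus strand at chr16:90220554-90220753 (Sod1, ending 9 bases before the start), chr17:13007617-13007816 (Sod2, 23 bases before) and chr4:116685349-116685543 (Prdx1, 56 bases before). None of them overlaps an annotated exon, although a longer Sod2 transcript begins upstream, so the Sod2 stretch is intronic to it. Capitals mark matches to 4 short motifs searched on both strands: a kappaB core (GGGNNNNNCC), an antioxidant response element core (TGACNNNGC), a GC box (GGGCGG) and a TATA box (TATAAA). Matches may overlap, and a GC box can lie inside a kappaB core match.
Sod1: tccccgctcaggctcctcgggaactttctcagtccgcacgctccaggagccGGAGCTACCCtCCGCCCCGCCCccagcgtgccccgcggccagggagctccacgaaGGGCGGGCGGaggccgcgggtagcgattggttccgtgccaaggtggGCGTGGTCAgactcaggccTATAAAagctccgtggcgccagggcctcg
Sod2: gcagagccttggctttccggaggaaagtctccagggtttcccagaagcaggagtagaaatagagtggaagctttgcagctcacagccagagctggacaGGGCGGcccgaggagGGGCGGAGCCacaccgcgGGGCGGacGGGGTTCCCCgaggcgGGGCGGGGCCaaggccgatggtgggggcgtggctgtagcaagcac
Prdx1: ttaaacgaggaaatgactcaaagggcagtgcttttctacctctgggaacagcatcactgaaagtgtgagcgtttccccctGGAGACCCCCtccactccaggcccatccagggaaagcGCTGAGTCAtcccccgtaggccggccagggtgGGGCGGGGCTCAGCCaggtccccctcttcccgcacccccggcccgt
Over the whole 300-base windows, Sod2 held 4 kappaB core matches, counting GGGGTTCCCC once on each strand, and 4 GC boxes. Sod1 held 1 kappaB core, 1 antioxidant response element core, 4 GC boxes and 1 TATA box. Prdx1 held 2 kappaB cores, 1 antioxidant response element core (GCTGAGTCA on the other strand), 1 GC box and 1 TATA box. These motifs are common: of the 32851 promoter windows of this length, 50.8% held the kappaB core, 12.4% the antioxidant response element core, 35.7% the GC box and 13.6% the TATA box. The windows shown were also richer in G and C (66.7% for Sod1, 64.3% for Sod2 and 60.7% for Prdx1) than the median window (52.7%). Among the other members with a window, Cat held 4 kappaB core matches, as Sod2 did. Gpx1 and Gpx3 held 2 each, Prdx5 held 1, and the windows of Gpx4 held 0 to 3. The matches describe letters only.

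A few facts of the whole series bear on the values. The estimated depth was 16 to 22.2 M fragments (M, mega) per library. The summed FPKM was 521294 to 559190 in the IL-1β libraries, and 405159 to 423830 in the libraries of the other conditions. The acute-phase gene Saa3 alone reached 62509 to 80249 FPKM with IL-1β, against 97 to 256 FPKM in vehicle. Rescaling each library to the same FPKM total (TPM) moves the median log2 difference of all tested genes from 0.03 to -0.31 in the IL-1β comparison with vehicle, so TPM values are given beside the IL-1β results named below whose call or direction changes there. The chondrocyte markers were present throughout: the 10 listed genes, mostly Col2a1, summed to 8838 to 11696 FPKM with bleomycin, 9029 to 11803 FPKM with doxorubicin, 5297 to 5709 FPKM with IL-1β and 11829 to 15701 FPKM in vehicle. Col2a1 averaged 6356, 6495, 3972 and 8971 FPKM in that order. Not every marker followed the sum: Comp averaged 1450, 1065, 302 and 934 FPKM, and Prg4 averaged 55.6, 97.4, 38.1 and 21.1 FPKM. Of 13 macrophage and myeloid markers, 5 were tested. Their list summed to 16.9 to 18.8 FPKM with bleomycin, 20.25 to 25.7 FPKM with doxorubicin and 59.8 to 81.7 FPKM with IL-1β, against 9.37 to 11.1 FPKM in vehicle. Most of that IL-1β sum was S100a8 (mean 40.3 FPKM) and Cd14 (15.8 FPKM). Cd68 averaged 4.52 FPKM with bleomycin, 3.94 FPKM with doxorubicin and 7.94 FPKM with IL-1β, beside 1.41 FPKM in vehicle. Lyz2 averaged 6.10, 10.9 and 6.66 FPKM in the same order, beside 3.33 FPKM in vehicle, while Mrc1 was lower with IL-1β (0.543 FPKM, against 1.06 FPKM). In all IL-1β libraries 3 markers were at 0 (Adgre1, Ly6g and Elane), and in all vehicle libraries also 3 (Itgam, Ly6g and Elane). The 8 adipocyte markers summed to 73.0 to 84.0 FPKM with bleomycin, 153.7 to 201 FPKM with doxorubicin, 367 to 405 FPKM with IL-1β and 35.7 to 41.3 FPKM in vehicle, most of it Fabp4. Adipoq, more specific to adipocytes, averaged 4.06 FPKM with bleomycin, 13.9 FPKM with doxorubicin, 0.043 FPKM with IL-1β and 0.104 FPKM in vehicle, and Cfd averaged 2.25 FPKM with bleomycin and 8.34 FPKM with doxorubicin and was at 0 in all IL-1β libraries. The 6 synovial fibroblast markers included Prg4, which is also on the chondrocyte list. They summed to 107.6 to 141.7 FPKM with bleomycin and 157.5 to 212 FPKM with doxorubicin. The sum was 112.9 to 139.1 FPKM with IL-1β and 49.2 to 75.7 FPKM in vehicle. In each condition 2 of them were under 1 FPKM in every library. Pdpn averaged 42.1 FPKM with bleomycin, 45 FPKM with doxorubicin and 74.6 FPKM with IL-1β, beside 23.8 FPKM in vehicle. Thy1 averaged 14.2, 22.4 and 7.51 FPKM in that order, beside 14.5 FPKM in vehicle. Cd55 averaged 8.8, 13.6 and 2.9 FPKM, beside 2.87 FPKM in vehicle. The 7 osteoclast markers, mostly Ctsk, summed to 103.5 to 113.5 FPKM with bleomycin and 122.5 to 158 FPKM with doxorubicin. They summed to 153 to 178.6 FPKM with IL-1β and 75.3 to 83.6 FPKM in vehicle. In each condition 5 of these markers were under 1 FPKM in every library, and Dcstamp and Ocstamp were at 0 in all IL-1β libraries. The 4 smooth muscle markers summed to 160.2 to 203.2 FPKM with bleomycin, 315 to 383.5 FPKM with doxorubicin, 152.2 to 216.1 FPKM with IL-1β and 316.5 to 455 FPKM in vehicle, and the 5 tendon markers, mostly Fmod, to 688.7 to 733.4 FPKM with bleomycin, 669.4 to 695.6 FPKM with doxorubicin, 264.7 to 280 FPKM with IL-1β and 406.9 to 519.5 FPKM in vehicle. The other tendon markers did not follow Fmod. Tnmd averaged 2.37 FPKM with bleomycin, 4.95 FPKM with doxorubicin and 2.76 FPKM with IL-1β, beside 15.9 FPKM in vehicle. Thbs4 averaged 9.43, 21.8 and 10.1 FPKM in the same order, beside 28.9 FPKM in vehicle. Scx averaged 12.9 to 14.1 FPKM, and Mkx 1.05 to 1.79 FPKM, over the 4 conditions. In the IL-1β libraries, all 7 erythroid markers were at 0, and they summed to at most 0.472 FPKM in any library. In bulk RNA, fewer cells of a type and less RNA per cell cannot be told apart, and the part of these shifts in the enzyme results was not tested.

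The enzymes moved upward where they moved. With bleomycin, 5 of the 10 genes were higher than in vehicle (Sod3, Cat, Prdx1, Gpx3 and Gpx4) and 0 were lower. With doxorubicin, 5 were higher (Sod3, Cat, Prdx1, Prdx5 and Gpx3) and 0 lower. With IL-1β, 8 were higher (all but Prdx6 and Gpx1) and 0 lower, and on the TPM scale 7, with Cat at a log2 difference of -0.04 there. A call is an adjusted p under 0.05 in limma (Benjamini-Hochberg over all tested genes). The background was high. Of all tested genes, 46.9% were called with bleomycin (27.9% higher, 19.0% lower), 48.3% with doxorubicin (25.4% higher, 22.8% lower) and 43.0% with IL-1β (24.5% higher, 18.4% lower). On the TPM scale, 1312 of the 12976 tested genes were higher with IL-1β and 6821 were lower. A share of 5 in 10 called is thus near the background of either drug, although every called member was higher. At a log2 difference of 1 or more (2-fold) the background was smaller. With bleomycin 0 members reached it (2.63% of genes were higher by that much), with doxorubicin Sod3 and Gpx3 did (3.66% of genes higher), and with IL-1β Sod2, Sod3, Prdx1, Prdx5, Gpx3 and Gpx4 did (3.88% of genes higher). On the TPM scale Sod2 and Gpx3 still did with IL-1β, at log2 differences of 2.72 and 1.41, and the other 4 lay between 0.64 and 0.75. The median log2 difference of the 10 genes was 0.39 with bleomycin, 0.26 with doxorubicin and 1.04 with IL-1β, beside medians of 0.06, 0.02 and 0.03 over all tested genes. These comparisons share the 4 vehicle libraries.

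**Figure D1:**
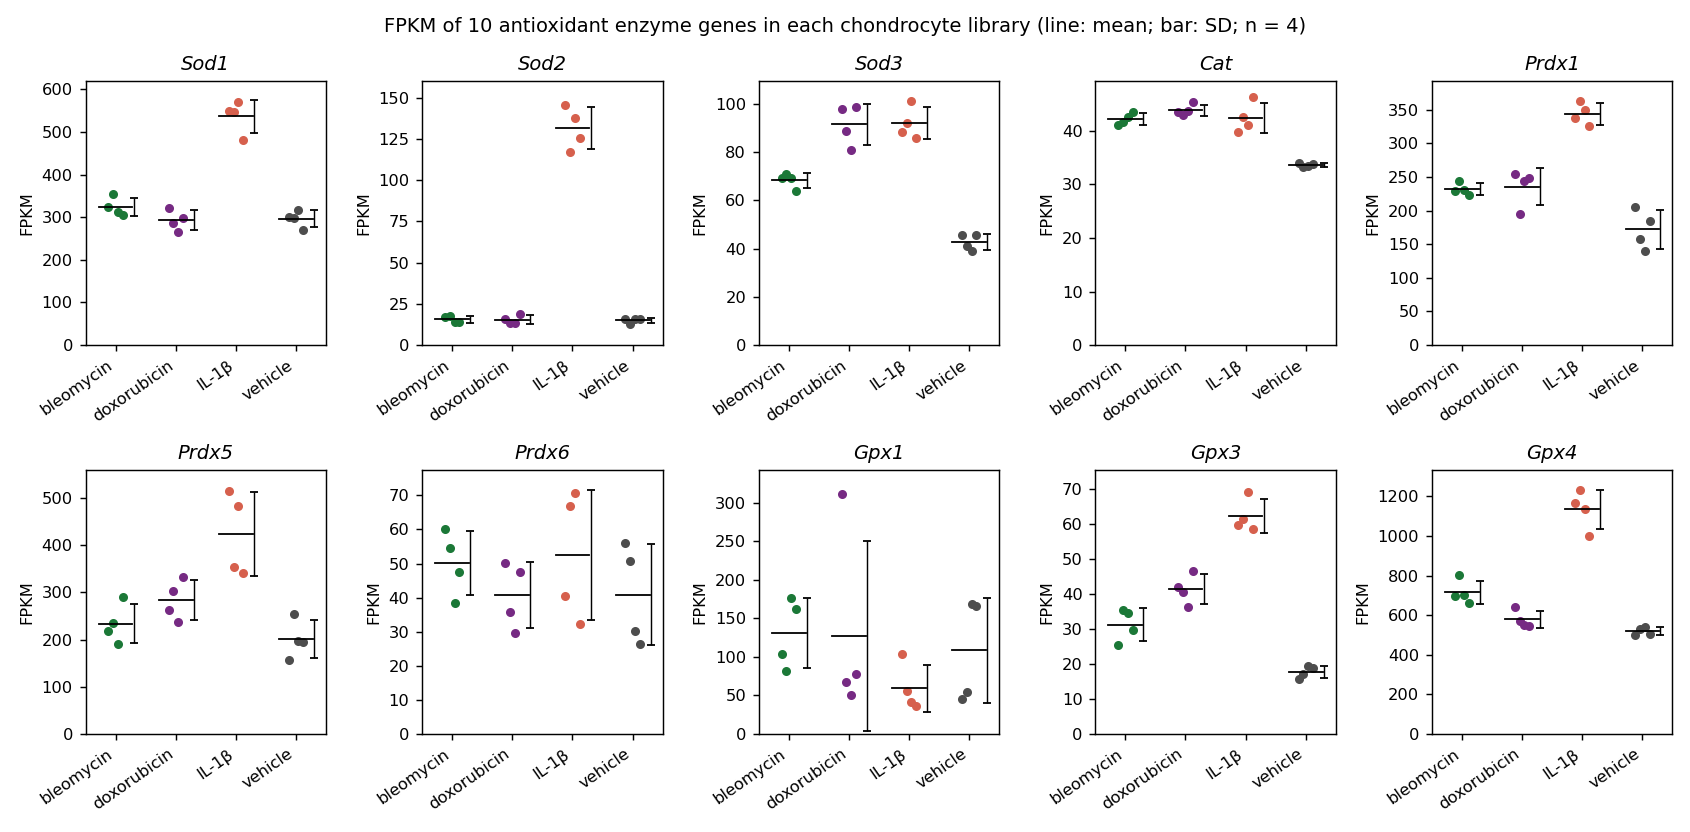
FPKM of each gene in every library, by condition (4 libraries each, dots); the line is the mean and the bar the SD, and each vertical axis starts at 0. Sod2 stands apart in the IL-1β libraries alone (116.9 to 145.9 FPKM), and the dots of Gpx1 and Prdx6 overlap in all conditions.

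Sod2, the mitochondrial dismutase (chr17:13006846-13040063, plus strand), had the largest change of the group. It measured 145.9, 116.9, 137.8 and 125.7 FPKM in the IL-1β libraries, against 15.8, 12.9, 15.7 and 16 FPKM in the vehicle libraries. The lowest IL-1β library was far above every vehicle library. The log2 difference was 3.04 ± 0.11 (SE), an 8.72-fold ratio of means (limma adjusted p = 5.84e-12), and 2.72 on the TPM scale. In the drug-treated cells Sod2 did not pass the test: it averaged 15.7 ± 1.97 FPKM with bleomycin and 15.4 ± 2.67 FPKM with doxorubicin, beside 15.1 ± 1.49 FPKM in vehicle (SD, n = 4 each). The 95% intervals of the log2 difference from vehicle were -0.19 to 0.29 for bleomycin and -0.22 to 0.26 for doxorubicin. Among the tested genes, Sod2 ranked in the top 4.0% by mean FPKM with IL-1β and in the top 34.3% in vehicle.

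Sod1, the cytosolic copper-zinc enzyme (chr16:90220754-90226329, plus strand), was the most abundant dismutase in every condition. It measured 549.1, 545.6, 569.0 and 481.0 FPKM with IL-1β, against 300.2, 297.8, 317.9 and 269.8 FPKM in vehicle. All IL-1β libraries were above all vehicle libraries, with a 1.81-fold ratio (log2 difference 0.85 ± 0.07 SE, limma adjusted p = 8.42e-08). Neither drug gave a call: the log2 difference was 0.13 ± 0.07 with bleomycin (limma adjusted p = 0.166) and -0.02 ± 0.07 with doxorubicin (limma adjusted p = 0.878). The Sod1 locus overlaps Scaf4 on the opposite strand. The library kit marks strand, but the sources used here do not say whether the counting used it.

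Sod3, the secreted dismutase that binds the extracellular matrix (chr5:52363791-52371418, plus strand), was higher with all 3 agents. It measured 69.4, 71.0, 69.5 and 64.0 FPKM with bleomycin, and 98.1, 88.8, 80.8 and 98.6 FPKM with doxorubicin. It measured 88.5, 92.3, 101.2 and 86.0 FPKM with IL-1β, against 45.5, 41.1, 39.2 and 45.8 FPKM in vehicle. No treated library reached down to the vehicle range, and the doxorubicin and IL-1β libraries overlapped. The ratios to vehicle were 1.60-fold with bleomycin (log2 0.66 ± 0.07, limma adjusted p = 2.26e-06), 2.13-fold with doxorubicin (log2 1.07 ± 0.07, adjusted p = 7.95e-09) and 2.14-fold with IL-1β (log2 1.08 ± 0.07, adjusted p = 5.41e-09). Sod3 was the dismutase called with both drugs, and bleomycin gave less of it than doxorubicin did (log2 difference -0.41 ± 0.07, limma adjusted p = 0.00197).

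Since a ratio of a pair of genes in 1 library does not depend on how libraries are scaled, the dismutases were also set against each other and against catalase. The ratio of Sod2 to Sod1 was 0.0484 ± 0.00398 with bleomycin, 0.0526 ± 0.00752 with doxorubicin, 0.246 ± 0.0234 with IL-1β and 0.0512 ± 0.00670 in vehicle (SD, n = 4 each). The lowest IL-1β library stood at 0.214 and the highest library of the other conditions at 0.0637. The ratio of Cat to the sum of the 3 dismutases was 0.104 ± 0.00851 with bleomycin, 0.110 ± 0.00890 with doxorubicin, 0.0562 ± 0.00755 with IL-1β and 0.0951 ± 0.00519 in vehicle. Every IL-1β library (0.0507 to 0.0668) lay below every vehicle library (0.0897 to 0.102), while the ranges of both drugs overlapped vehicle. These ratios of transcript levels are descriptions, with no test.

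**Figure D2:**
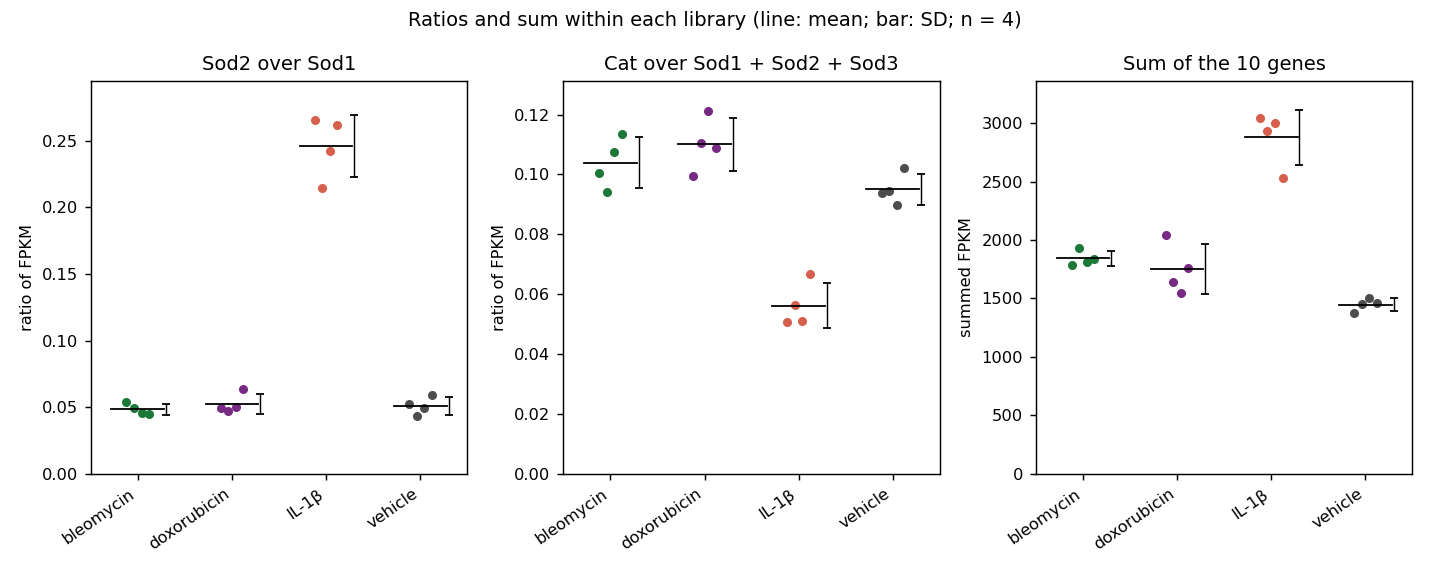
Ratio of Sod2 to Sod1, ratio of Cat to the 3 summed dismutases, and summed FPKM of the 10 genes in each library (dots; line, mean; bar, SD; 4 libraries per condition). IL-1β libraries stand above the others for Sod2 over Sod1 (mean 0.246) and below them for Cat over the dismutases (mean 0.0562).

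Catalase (Cat, chr2:103453849-103485160, minus strand), the haem enzyme of peroxisomes, rose by similar small amounts, except that the IL-1β change was absent on the TPM scale (log2 -0.04). It measured 41.1, 41.7, 42.5 and 43.5 FPKM with bleomycin, and 43.5, 42.9, 43.7 and 45.3 FPKM with doxorubicin. It measured 39.8, 42.6, 41.1 and 46.3 FPKM with IL-1β, against 34.0, 33.2, 33.5 and 33.9 FPKM in vehicle. Vehicle libraries were the lowest 4 of the 16, and the treated groups overlapped each other. The ratios were 1.26-fold with bleomycin (log2 0.32 ± 0.05, limma adjusted p = 5.03e-05), 1.30-fold with doxorubicin (log2 0.37 ± 0.05, adjusted p = 8.33e-06) and 1.26-fold with IL-1β (log2 0.32 ± 0.05, adjusted p = 3.93e-05). On the TPM scale the IL-1β comparison had a limma adjusted p of 0.573. Cat was the steadiest of the 10 genes, with a pooled within-condition SD of 0.053 on the log2 scale, and 1.2% of tested genes had a smaller one.

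Prdx1, an abundant cytosolic peroxiredoxin (chr4:116685544-116700822, plus strand), was called with all 3 agents. It measured 229.5, 243.6, 230.3 and 223.7 FPKM with bleomycin, and 254.8, 194.7, 244.0 and 248.4 FPKM with doxorubicin. It measured 338.0, 362.6, 348.7 and 325.3 FPKM with IL-1β, against 206.0, 158.0, 140.0 and 184.0 FPKM in vehicle. The bleomycin and IL-1β libraries were all above vehicle, while 1 doxorubicin library lay below the highest vehicle library. The ratios were 1.35-fold with bleomycin (log2 0.44 ± 0.10, limma adjusted p = 0.00213), 1.37-fold with doxorubicin (log2 0.46 ± 0.10, adjusted p = 0.0015) and 2.00-fold with IL-1β (log2 1.01 ± 0.10, adjusted p = 6.64e-07).

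Prdx5, a peroxiredoxin of mitochondria, peroxisomes and cytosol (chr19:6906697-6910106, minus strand), measured 218.4, 234.8, 190.4 and 289.3 FPKM with bleomycin, and 261.6, 302.0, 236.2 and 331.7 FPKM with doxorubicin. It measured 515.5, 354.6, 482.9 and 342.0 FPKM with IL-1β, against 156.8, 253.3, 197.1 and 195.5 FPKM in vehicle. The IL-1β libraries were above all others, and both drug groups overlapped vehicle. The IL-1β ratio was 2.11-fold (log2 1.07 ± 0.17, limma adjusted p = 6.9e-05). The doxorubicin ratio was 1.41-fold (log2 0.50 ± 0.17, limma adjusted p = 0.0204), and that call was lost without doxorubicin replicate 2 (adjusted p = 0.0521), doxorubicin replicate 4 (0.0674) or vehicle replicate 1 (0.0752), and with no filter on low values (0.0579). Bleomycin gave a log2 difference of 0.22 ± 0.17, which did not pass (limma adjusted p = 0.302). Prdx5 overlaps Trmt112 on the opposite strand.

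Prdx6, the peroxiredoxin that also acts on phospholipid peroxides (chr1:161240112-161251219, minus strand), was called in 0 of the 6 comparisons. It measured 60.3, 54.6, 38.4 and 47.6 FPKM with bleomycin, and 50.2, 35.6, 29.6 and 47.5 FPKM with doxorubicin. It measured 40.4, 66.9, 70.6 and 32.3 FPKM with IL-1β, against 56.1, 50.9, 30.1 and 26.3 FPKM in vehicle. All 4 ranges overlapped. The 95% intervals of the log2 difference from vehicle were -0.24 to 0.93 with bleomycin, -0.54 to 0.62 with doxorubicin and -0.23 to 0.93 with IL-1β, so these intervals leave out a change of 2-fold or more (log2 of 1) but not smaller ones.

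Gpx3, the secreted selenium-dependent glutathione peroxidase (chr11:54902453-54910377, plus strand), had the second largest change after Sod2. It measured 25.4, 35.5, 34.5 and 29.6 FPKM with bleomycin, and 42.0, 40.5, 36.2 and 46.6 FPKM with doxorubicin. It measured 59.7, 61.4, 69.3 and 58.6 FPKM with IL-1β, against 15.7, 17.2, 19.5 and 18.9 FPKM in vehicle. The 4 conditions did not overlap, in the order IL-1β, doxorubicin, bleomycin, vehicle from high to low. The ratios to vehicle were 1.76-fold with bleomycin (log2 0.77 ± 0.10, limma adjusted p = 1.55e-05), 2.32-fold with doxorubicin (log2 1.17 ± 0.10, adjusted p = 1.33e-07) and 3.50-fold with IL-1β (log2 1.75 ± 0.10, adjusted p = 9.67e-10). The call between bleomycin and doxorubicin (log2 -0.40 ± 0.10, limma adjusted p = 0.0211) was lost without bleomycin replicate 1 (0.0701), bleomycin replicate 4 (0.0528) or doxorubicin replicate 4 (0.0716), with no filter (0.0527) and in a fit of these 2 groups alone (0.0574). The IL-1β call against doxorubicin was lost on the TPM scale, where doxorubicin minus IL-1β was -0.21 (adjusted p = 0.0687).

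Gpx4, the glutathione peroxidase that reduces lipid peroxides within membranes (chr10:80047166-80056439, plus strand), was the most abundant of the 10 genes in every condition and made up 33.2% to 39.5% of their summed FPKM on average. It measured 694.8, 800.5, 701.5 and 661.2 FPKM with bleomycin, and 643.4, 572.6, 551.7 and 543.7 FPKM with doxorubicin. It measured 1166, 1235, 1139 and 1000.3 FPKM with IL-1β, against 498.5, 532.1, 542.4 and 506.2 FPKM in vehicle. Every treated library was above every vehicle library. The ratios were 1.38-fold with bleomycin (log2 0.46 ± 0.07, limma adjusted p = 0.000117), 2.18-fold with IL-1β (log2 1.12 ± 0.07, adjusted p = 4.3e-09) and 1.11-fold with doxorubicin, which did not pass (log2 0.15 ± 0.07, adjusted p = 0.11). Gpx4 was higher with bleomycin than with doxorubicin (log2 0.31 ± 0.07, limma adjusted p = 0.0163), a call lost without bleomycin replicate 2 (0.0568) or doxorubicin replicate 4 (0.0511) and with median-of-ratios scaling (0.0578). Reads of Gpx4 may be shared with the processed pseudogene Gpx4-ps2, whose FPKM was 12.1% to 17.3% of that of Gpx4 in each of the 16 libraries. Gpx4-ps2 averaged 118.2 FPKM with bleomycin, 92.3 FPKM with doxorubicin, 181.2 FPKM with IL-1β and 75.8 FPKM in vehicle. The sum of both rows averaged 833 FPKM with bleomycin, 670.2 FPKM with doxorubicin, 1316 FPKM with IL-1β and 596 FPKM in vehicle. The rows of Gpx4-ps1, Prdx1-ps, Prdx6-ps2 and Prdx6b were each at or under 0.31 FPKM in every library.

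Gpx1, the cytosolic and mitochondrial glutathione peroxidase (chr9:108338903-108340343, plus strand), was called in 0 of the 6 comparisons. It measured 104.2, 81.6, 176.9 and 162.1 FPKM with bleomycin, and 311.3, 67.6, 49.8 and 78.0 FPKM with doxorubicin. It measured 103.4, 55.6, 41.1 and 35.6 FPKM with IL-1β, against 45.2, 54.5, 169.0 and 166.4 FPKM in vehicle. Values within 1 condition differed by up to several fold, and a single doxorubicin library held the highest. The 95% interval of the log2 difference from vehicle was -0.71 to 1.61 with bleomycin, -1.10 to 1.22 with doxorubicin and -1.91 to 0.41 with IL-1β, so each interval still holds a 2-fold change. Between bleomycin and IL-1β the log2 difference was 1.20 ± 0.55 (limma adjusted p = 0.0767). It passed in a fit of these 2 groups alone (1.20, adjusted p = 0.015), on the TPM scale (1.59, adjusted p = 0.0168) and without IL-1β replicate 1 (1.51, adjusted p = 0.0392).

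The genes also differed in how much they varied within a condition. The pooled within-condition SD of log2(FPKM + 1) was 0.879 for Gpx1, 0.439 for Prdx6 and 0.265 for Prdx5, and 99.7%, 97.5% and 88.1% of tested genes had a smaller one. The other 7 genes lay between 0.053 and 0.173, around the median of 0.140 over all tested genes. Among the 3598 tested genes with a mean of at least 20 FPKM the median was 0.108. Within the selenium-dependent peroxidases the spread was 0.156 for Gpx3 and 0.107 for Gpx4, beside 0.879 for Gpx1.

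**Figure D3:**
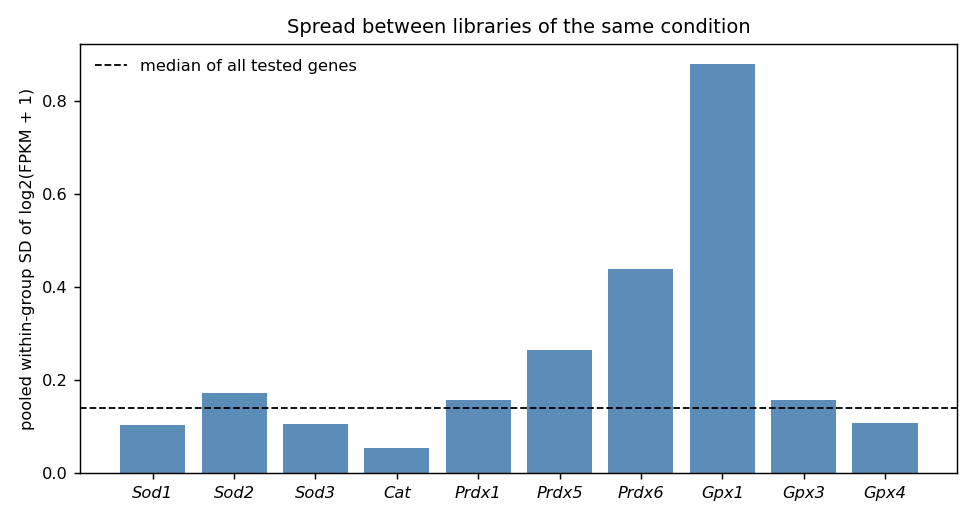
Pooled within-condition SD of log2(FPKM + 1) for each of the 10 genes (bars), with the median of all tested genes as the dashed line (0.140). Gpx1 (0.879) and Prdx6 (0.439), the genes with no call in any comparison, have the tallest bars, and Cat (0.053) the shortest.

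Summed over the 10 genes, FPKM was 1842 ± 66.3 with bleomycin, 1749 ± 213 with doxorubicin, 2878 ± 235 with IL-1β and 1448 ± 54.5 in vehicle (SD, n = 4 each). The summed glutathione peroxidases were 877 ± 45.7 FPKM with bleomycin, 746 ± 168 FPKM with doxorubicin, 1256 ± 116 FPKM with IL-1β and 646 ± 78.6 FPKM in vehicle. The summed peroxiredoxins were 515 ± 43.1 FPKM with bleomycin, 559 ± 51.3 FPKM with doxorubicin, 819.9 ± 96.6 FPKM with IL-1β and 414 ± 39.2 FPKM in vehicle. As a share of the 10-gene sum, Sod2 made up 4.58% ± 0.426 in the IL-1β libraries, against 1.04% ± 0.113 in vehicle, and Sod3 was highest with doxorubicin (5.25% ± 0.345, against 2.97% ± 0.315 in vehicle).

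**Figure D4:**
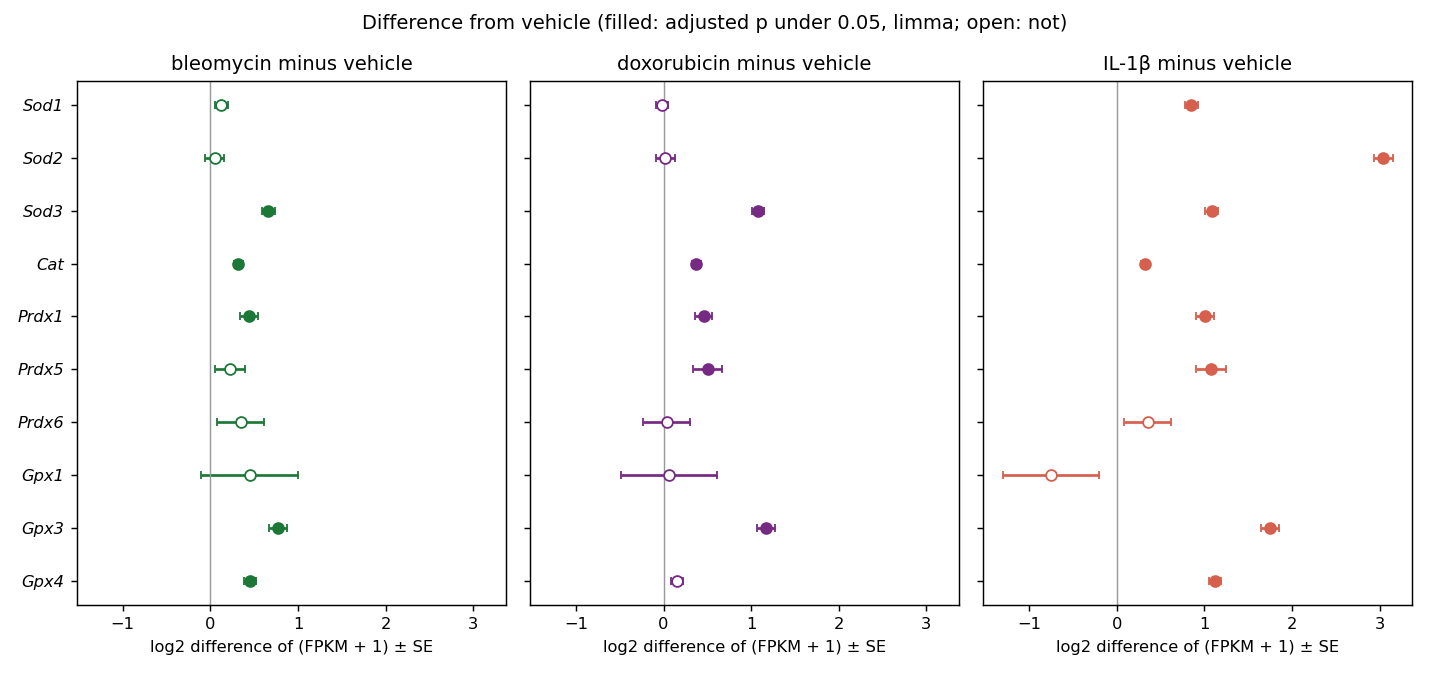
Log2 difference of (FPKM + 1) from vehicle ± SE for each gene with bleomycin, doxorubicin and IL-1β (4 libraries per condition); filled circles have an adjusted p under 0.05 in limma. Filled circles number 5, 5 and 8 and all lie above 0 (Cat with IL-1β turned to -0.04 on the TPM scale), with Sod2 in IL-1β farthest from it (3.04).

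The treatments were then compared with each other. IL-1β was applied over 24 h and the drug schedules held 5 days of culture, so agent and schedule cannot be told apart in the comparisons with IL-1β. Hyaluronidase is listed for bleomycin and not for the other agents. Between bleomycin and doxorubicin, 3 of the 10 genes were called, against 10.0% of all tested genes: Gpx4 was higher with bleomycin (5.85% of genes were higher), and Sod3 and Gpx3 were lower (4.18% of genes were lower). Without doxorubicin replicate 4, 1 of these calls was left, that of Sod3. Between bleomycin and IL-1β, 7 genes were lower with bleomycin (Sod1, Sod2, Sod3, Prdx1, Prdx5, Gpx3 and Gpx4), where 52.8% of all tested genes were called and 25.2% were lower. Between doxorubicin and IL-1β, 6 genes were lower with doxorubicin (the same without Sod3), where 54.2% of genes were called and 29.2% were lower. At 2-fold or more, Sod2 was the member left in each of these comparisons with IL-1β (6.66% of all tested genes against bleomycin and 7.76% against doxorubicin), at log2 differences of -2.99 ± 0.11 with bleomycin and -3.02 ± 0.11 with doxorubicin. The comparisons with IL-1β were the ones most affected by scale. On the TPM scale, 5 genes were lower and 2 higher with bleomycin than with IL-1β, and 3 were lower and 2 higher with doxorubicin. Of all 12976 tested genes, 1194 were lower and 7515 higher with bleomycin on that scale, and 1524 lower and 6924 higher with doxorubicin. The calls lost there were those of Sod3 and Prdx1 with bleomycin (-0.04 and -0.19) and of Prdx1, Prdx5 and Gpx3 with doxorubicin (-0.17, -0.19 and -0.21); that of Prdx5 was also lost with quantile normalization (-0.40). On that scale Cat turned to 0.37 and Sod3 stood at -0.04 in bleomycin minus IL-1β, and Sod3 turned to 0.37 and Cat stood at 0.42 in doxorubicin minus IL-1β.

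Genes whose pattern over the 4 condition means was most like that of a member were ranked by the root mean square difference of centred log2(FPKM + 1) means, for the 8 members whose means spanned at least 0.5. For Sod2 these were Gpr84 (0.069), Hcar2 (0.086) and Tmem238l (0.144), each of which averaged 8.03 to 8.41 FPKM with IL-1β and under 0.5 FPKM in the other conditions, so their FPKM ratios were larger than that of Sod2. For Gpx3 they were Plin4 (0.040), Clu (0.055) and Robo2 (0.078). Clu, which encodes the secreted chaperone clusterin, averaged 38.9 FPKM with bleomycin, 50.4 FPKM with doxorubicin, 82.1 FPKM with IL-1β and 24.1 FPKM in vehicle. For Sod3 they were Sdk1 (0.042), Prxl2a (0.062) and Add3 (0.062), and for Sod1 they were Atp5l (0.029), Gxylt2 (0.030) and Polr2k (0.031). For Prdx1 they were Gnpda1 (0.005), Gpr146 (0.014) and Fam102b (0.022), and for Prdx5 they included Lrrc27 (0.013) and Cd1d1 (0.057). For Gpx4 they were Rilpl2 (0.029), Gm32031 (0.050) and 4833438C02Rik (0.058). For Gpx1, whose own means were not separated by the test, they were Fam220a (0.039), Zfp521 (0.042) and Dusp14 (0.066). A likeness over 4 means is a description of these libraries.

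The genes around the 10 enzymes were read from 10 lists, whose counts stand beside a background of 27.9% of all tested genes higher and 19.0% lower with bleomycin, 25.4% and 22.8% with doxorubicin, and 24.5% and 18.4% with IL-1β. The TPM counts given for IL-1β have another background, with 1312 of the 12976 tested genes higher and 6821 lower. Of the other 3 peroxiredoxins, 1 was higher and 1 lower with each drug, and 2 were higher and 1 lower with IL-1β (0 and 2 on the TPM scale). Prdx3, the mitochondrial one, was lower with bleomycin (41.8 FPKM, against 51.6 FPKM in vehicle) and doxorubicin (40.9 FPKM), with limma adjusted p-values of 0.000409 and 0.000129, and 0.901-fold with IL-1β (adjusted p = 0.0446). Prdx2 was higher with IL-1β (134 FPKM, against 98.6 FPKM in vehicle, limma adjusted p = 3.86e-06; log2 0.07 on the TPM scale, adjusted p = 0.249) and by 1.14-fold with each drug. Prdx4, of the endoplasmic reticulum, was 1.14-fold higher with IL-1β (adjusted p = 0.00652), but its log2 difference was -0.19 on the TPM scale. Of 5 other glutathione peroxidases, 2 were tested, and 1 of them was called: Gpx8, of the endoplasmic reticulum, was higher with bleomycin (1.53-fold), doxorubicin (1.57-fold) and IL-1β (1.19-fold, but -0.13 in log2 on the TPM scale), with limma adjusted p-values of at most 0.00215. Gpx2, Gpx5 and Gpx6 were below the filter.

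Of 11 tested genes of glutathione synthesis and recycling, 9 were higher and 0 lower with IL-1β (7 and 0 on the TPM scale), 3 higher and 2 lower with bleomycin, and 4 higher and 2 lower with doxorubicin. In the direct comparisons with IL-1β, 1 was higher and 8 were lower with bleomycin, and 1 was higher and 8 were lower with doxorubicin (2 and 7 in each on the TPM scale). Of all tested genes, 25.2% were lower with bleomycin than with IL-1β and 29.2% were lower with doxorubicin. On the TPM scale these were 1194 and 1524 of 12976 genes. The list's median log2 difference was -0.06 with bleomycin, -0.02 with doxorubicin and 0.55 with IL-1β. With IL-1β, Gclc, the catalytic subunit of the rate-limiting synthesis enzyme, averaged 22.0 FPKM, against 8.30 FPKM in vehicle, and the glutaredoxin Glrx averaged 77.7 FPKM, against 30.3 FPKM. Pgd, an NADPH-producing enzyme of the pentose phosphate pathway, averaged 137 FPKM with IL-1β, against 71.1 FPKM in vehicle (limma adjusted p at most 5.42e-09 for these genes). With the drugs, Gsr, the enzyme that reduces oxidised glutathione, was lower (0.590-fold with bleomycin, 0.485-fold with doxorubicin). Slc7a11, the cystine importer, was lower too (0.399-fold with bleomycin, 0.432-fold with doxorubicin), while Gss, which completes glutathione, was higher (1.89-fold and 1.93-fold). The limma adjusted p-values of these drug results were between 2.23e-07 and 2.38e-05.

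The thioredoxin system, which reduces peroxiredoxins, was mixed: of 11 tested genes, 5 were higher and 3 lower with bleomycin, 4 and 2 with doxorubicin, and 4 and 2 with IL-1β (2 and 6 on the TPM scale). Txn1, the cytosolic thioredoxin, was lower with bleomycin (188 FPKM) and doxorubicin (180 FPKM) and higher with IL-1β (413 FPKM), beside 272 FPKM in vehicle (limma adjusted p-values 3.08e-06, 6.82e-07 and 6.35e-07). Txnip, which binds and inhibits thioredoxin, went the other way, with 112 FPKM in bleomycin, 81.5 FPKM in doxorubicin and 31.9 FPKM in IL-1β, beside 59.6 FPKM in vehicle (limma adjusted p-values 1.43e-05, 0.00513 and 1.78e-05). Srxn1, sulfiredoxin, which repairs overoxidised peroxiredoxins, was higher with all 3 agents (1.48-fold, 1.43-fold and 2.09-fold, limma adjusted p at most 6.92e-05).

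The genes that make superoxide or hydrogen peroxide were called only upward on the deposited scale: of 11 tested among 19 listed, 8 were higher with bleomycin, 8 with doxorubicin and 6 with IL-1β, and 0 were lower, although on the TPM scale 5 were higher and 2 lower with IL-1β. The list's median log2 difference was 0.48 with bleomycin, 0.69 with doxorubicin and 0.35 with IL-1β. Xdh, xanthine dehydrogenase, averaged 15.4 FPKM with doxorubicin and 35.6 FPKM with IL-1β, beside 7.23 FPKM in vehicle. Aox1, an aldehyde oxidase, was low in all groups, with 2.40 FPKM in bleomycin, 3.31 FPKM in doxorubicin, 1.63 FPKM in IL-1β and 0.593 FPKM in vehicle. Maob, a mitochondrial monoamine oxidase, averaged 1.77 FPKM with bleomycin and 2.55 FPKM with doxorubicin, beside 0.415 FPKM in vehicle. Cyba, a membrane subunit shared by NADPH oxidases, averaged 100.4 FPKM with IL-1β, against 59.1 FPKM in vehicle. The limma adjusted p-values of these calls were at most 0.00012.

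Of 14 tested genes of metal and selenium supply, 2 were higher and 5 lower with bleomycin, 3 and 5 with doxorubicin, and 4 and 1 with IL-1β (3 and 9 on the TPM scale). Selenop, which encodes the selenium carrier selenoprotein P, averaged 8.37 FPKM with bleomycin, 14.6 FPKM with doxorubicin and 6.22 FPKM with IL-1β, beside 2.47 FPKM in vehicle (limma adjusted p-values 5.25e-08, 3.68e-10 and 1.08e-06). Its receptor gene Lrp8 averaged 2.95 FPKM with bleomycin and 1.88 FPKM with doxorubicin, beside 6.36 FPKM in vehicle (limma adjusted p-values 1.13e-06 and 8.04e-09). Eefsec, the elongation factor that delivers selenocysteine at the codon shown above, was lower with both drugs (0.652-fold and 0.669-fold, limma adjusted p = 0.0116 and 0.0134). With IL-1β, Atox1, a copper chaperone, was 1.59-fold higher and Sephs2, which makes the selenium donor, 1.49-fold higher (limma adjusted p-values 2.15e-06 and 3.63e-06).

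Of 12 genes of peroxisome import and formation, 6 were higher and 0 lower with bleomycin (3 and 0 after quantile normalization, 4 and 0 after median-of-ratios scaling), 4 and 0 with doxorubicin, and 5 and 2 with IL-1β (2 and 7 on the TPM scale). Pex5, the receptor that brings catalase and other enzymes into peroxisomes, was 1.15-fold higher with doxorubicin and 1.42-fold higher with IL-1β (log2 0.48, and 0.13 on the TPM scale, adjusted p = 0.0716). Pex11a, a peroxisome division factor, was higher with all 3 agents (1.48-fold, 1.77-fold and 2.66-fold). Pex13, part of the import machinery, was 1.41-fold higher with bleomycin and 1.36-fold higher with doxorubicin, and Pex16 was 1.66-fold higher with IL-1β (limma adjusted p at most 0.0106 for these calls). Of 7 haem peroxidases, 3 were tested. Ptgs1, a cyclooxygenase, was higher with all 3 agents (1.56-fold, 2.03-fold and 2.45-fold), and Ptgs2, the inducible cyclooxygenase, averaged 6.01 FPKM with bleomycin, 5.78 FPKM with doxorubicin and 19.0 FPKM with IL-1β, beside 10.3 FPKM in vehicle. Pxdn, peroxidasin, was lower with doxorubicin (0.844-fold) and IL-1β (0.693-fold). The limma adjusted p-values of these calls were at most 0.0127.

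The list of lipid peroxide and ferroptosis genes, the setting in which Gpx4 is best known, had 6 tested genes. Of these, 3 were higher and 3 lower with bleomycin, 3 and 2 with doxorubicin, and 4 and 1 with IL-1β (2 and 2 on the TPM scale). The list is not of defence genes alone, since it includes Acsl4, which was among the higher calls with IL-1β. The ferritin heavy chain gene Fth1 averaged 1274 FPKM with bleomycin, 1321 FPKM with doxorubicin and 5205 FPKM with IL-1β, beside 833 FPKM in vehicle. The light chain gene Ftl1 was higher with bleomycin (1.73-fold) and IL-1β (1.87-fold). Slc3a2, the partner chain of the cystine importer, was lower with bleomycin (0.611-fold) and doxorubicin (0.618-fold). Aifm2, a ferroptosis suppressor, was 1.59-fold higher with doxorubicin, and Acsl4, which supplies oxidisable phospholipids, 1.59-fold higher with IL-1β (log2 0.62, and 0.29 on the TPM scale, adjusted p = 0.0708). The limma adjusted p-values of the calls named here were at most 0.00102.

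A list of transcription factors and other regulators known to act on these enzyme genes had 11 tested genes. With each drug 4 were higher and 2 lower (2 and 2 for bleomycin with quantile normalization). With IL-1β, 7 were higher and 0 lower (3 and 3 on the TPM scale). Epas1 (HIF-2α) averaged 4.91 FPKM with bleomycin, 6.38 FPKM with doxorubicin and 26.2 FPKM with IL-1β, beside 2.38 FPKM in vehicle (limma adjusted p-values 9.37e-07, 1.56e-08 and 1.5e-13). Foxo3 was 1.77-fold higher with bleomycin and 1.41-fold higher with doxorubicin. Nfkb1, which encodes a subunit of NF-kB, averaged 50.7 FPKM with IL-1β, against 27.1 FPKM in vehicle, and Nfe2l2, which encodes NRF2, averaged 60.1 FPKM, against 40.5 FPKM. Rela was 1.34-fold higher with doxorubicin, and Trp53 was lower with bleomycin (0.722-fold), with limma adjusted p-values of at most 0.000967 for these calls.

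**Figure D5:**
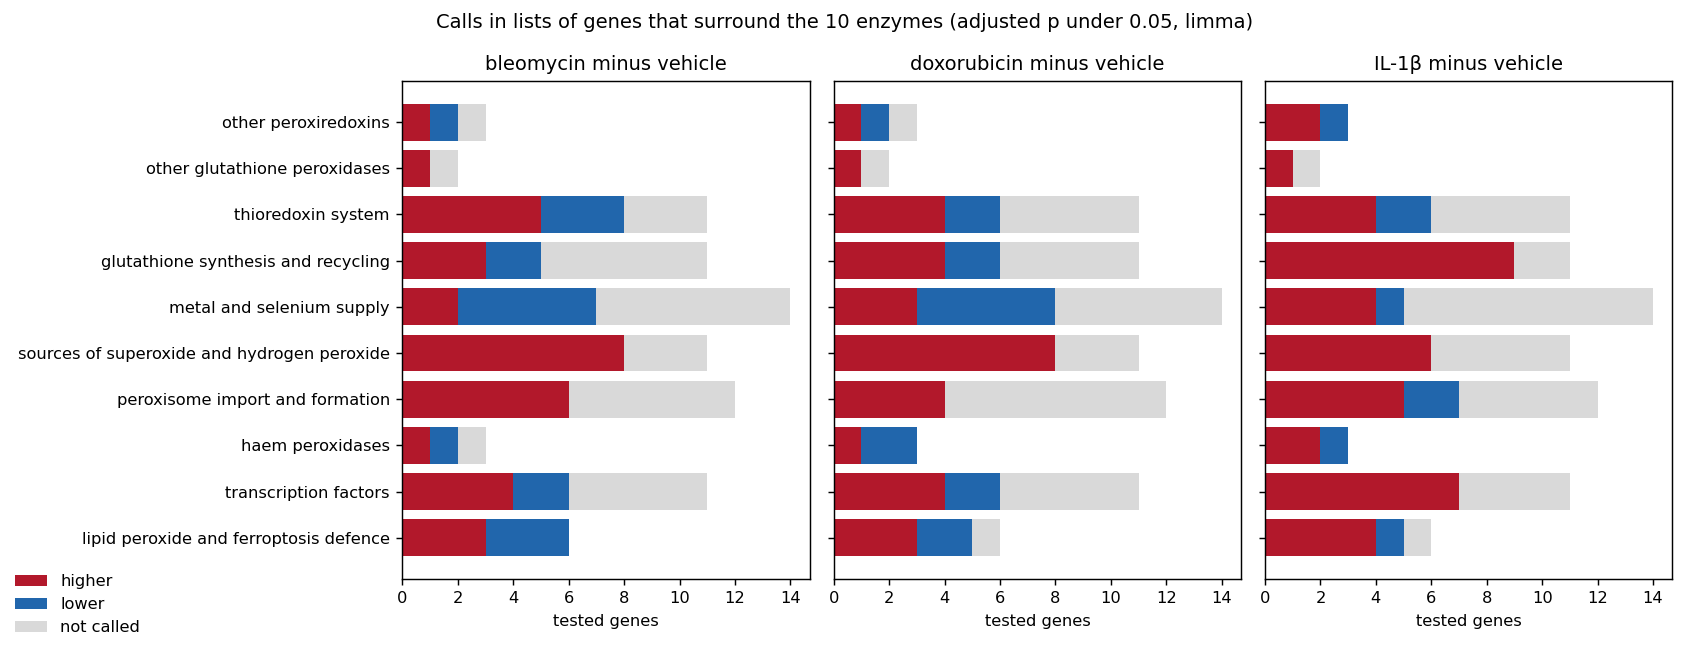
Number of tested genes called higher, lower or not called (adjusted p under 0.05, limma) in 10 lists of genes around the enzymes, for bleomycin, doxorubicin and IL-1β against vehicle. The list of glutathione synthesis and recycling has 3 higher calls with bleomycin, 4 with doxorubicin and 9 with IL-1β out of 11 genes.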

How the data were processed

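Per the labels, RNA was made into libraries with a stranded, poly(A)-selecting kit (TruSeq Stranded mRNA), 4 per condition. Per the submitters' processing notes, the tools were Trimmomatic and STAR with the build GRCm38, without versions, and the tool behind the FPKM values is not given in the sources used here. All deposited tables hold FPKM, 1 library each, computed by the authors. Low values came out as whole steps in 73.1% to 79.7% of cases (tolerance 0.1), so counts were not recovered and no count test was run. Depth was estimated from the steps between those values (single-transcript genes of at least 1000 bases). The steps gave 32 to 44.4 M per library. Each step was taken as 1 read end and a pair of read ends as 1 fragment, so the fragment depth rests on that reading of a step.

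From the FPKM values, log2(FPKM + 1) was fitted for 12976 genes in 16 libraries with limma 3.58.1 (R 4.3.3; group means, mean-variance trend). Benjamini-Hochberg adjustment was done separately for each of 6 comparisons. Fold ratios are ratios of mean FPKM. The added 1 FPKM understates changes of low genes. The script was tested on simulated data. Gene locations come from GENCODE M21 (GRCm38), in which 54312 of 55450 identifiers had the same version.

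The members and lists were chosen with earlier results of these data known. Named beside the 10 members were, per list and comparison, up to 3 called genes with the largest differences; they are given here for the comparisons with vehicle, along with the 3 most alike genes per member. A few genes that this rule names are not reported here. Alternatives were other pseudocounts (0.1, 0.01), filters (none, 5 FPKM), scalings (TPM, median of ratios, quantile), a 2-group fit, no trend, a replicate block and leaving out each library.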

Additional observations from a re-analysis of the deposited data

Results flagged for a closer look

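In 3 of the 56 sets of 4 libraries checked, 1 library lay far from the other 3 relative to the range of the set; chance alone gives such a gap in about 1 in 20 sets. Gpx1 was at 311.3 FPKM in doxorubicin replicate 1 and between 49.8 and 78.0 FPKM in the other doxorubicin libraries. Sod2 was at 12.9 FPKM (12.87) in vehicle replicate 2 and between 15.7 and 16 FPKM in the other vehicle libraries. The FPKM of Gpx4-ps2 was 12.11% of that of Gpx4 in vehicle replicate 2, and 15.1% to 15.6% in the other vehicle libraries.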

How the results depend on the processing

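Of the log2 differences of the members recomputed under the alternatives, 1052 kept their side of the threshold, 18 lost a call and 7 gained one. A further 3 reversed direction with a call in either fit. Differences called in neither fit were counted as kept even where their sign changed. Sod2 in bleomycin minus vehicle, for example, ranged from -0.02 to 0.1 when 1 library was left out. The 3 were on the TPM scale: Cat in IL-1β minus vehicle (-0.04), Cat in bleomycin minus IL-1β (0.37) and Sod3 in doxorubicin minus IL-1β (0.37); by construction that scale lowers all values of the libraries whose FPKM sums are highest. The number of members called between bleomycin and doxorubicin was 1 to 3 when 1 library was left out, with 1 without doxorubicin replicate 4. Quantile normalization added calls of Sod1 with bleomycin (log2 0.15) and Gpx4 with doxorubicin (0.17) against vehicle, and median-of-ratios scaling ended that of Gpx4 between the drugs (0.25); the cause was not tested. The condition order of the mean levels was the same for 7 of 10 members on the TPM scale, 8 with median of ratios and 5 with quantile normalization.

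The share of calls that were higher moved with scale: 59.5% for bleomycin minus vehicle (48.3% with quantile normalization), 57.1% for IL-1β minus vehicle (16.1% TPM, 44.0% quantile), 58.3% for bleomycin minus doxorubicin (37.6% median of ratios, 46.6% quantile), 52.2% for bleomycin minus IL-1β (86.3% TPM) and 46.2% for doxorubicin minus IL-1β (82.0% TPM).

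Replicates carry the numbers 1 to 4 in every condition. Deviations of same-numbered libraries correlated at -0.023 to 0.214 and those of other pairs at -0.195 to 0.099. Of 24 same-numbered pairs, 6 were over 0.1. For 4 of 16 libraries, the best correlation was with their own number in every other condition, a stricter rule than in a single other condition. Pairing was taken to need every same-numbered pair over 0.1, so the numbers were not used to pair the samples, although the higher values of same-numbered pairs leave some shared structure possible. With the replicate block, the members called were 5 (bleomycin minus vehicle), 5 (doxorubicin minus vehicle), 8 (IL-1β minus vehicle), 3, 7 and 6, as without it. Over all tested genes, the block raised the number of calls in every comparison, for example from 1301 to 1488 between bleomycin and doxorubicin. Precision is limited by 4 libraries per condition and, for Gpx1 and Prdx6, by their spread.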
